A study of Mus musculus with 60 samples.

Results

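Long noncoding RNA genes transcribed in mouse embryonic stem cells were described in nascent RNA with and without knockdown of Esrrb, an orphan nuclear receptor that helps to keep stem cells in the naive state. A gene was a member if it had an NR_ (noncoding RefSeq) row in the deposited tables, the biotype lncRNA in the reference annotation and a mean of at least 0.5 RPKM (reads corrected for gene length and for library depth) over 4 libraries. Genes of well-known abundant nuclear and imprinted transcripts (13 symbols, among them Malat1, Neat1, Meg3 and Kcnq1ot1) were left out by name. This gave 183 members, of 2084 long noncoding RNA genes with a row in the tables and of 9758 genes of all kinds at or above the same minimum. The values that chose the members are their levels, so the levels below are a description without a test. The choice did not use the difference between the groups directly, but 7 members had a group mean under 0.5 scaled RPKM in the siEsrrb libraries only, and 1 in the siCtrl libraries only.

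The cells were of the E14 line, grown in serum and LIF. Both groups were transfected with siRNA and harvested after 72 h: siCtrl with a control siRNA and siEsrrb with an siRNA against Esrrb, 2 libraries in each group. RNA was taken from the chromatin pellet, where transcripts are still attached to their genes, so introns and exons are both read. The gene length behind the RPKM lay within 1% of the annotated span, introns included, for 154 members and outside it for the other 29. Whether the replicates are separate cultures is not stated for nascent RNA, and p-values therefore measure only the spread between these libraries.

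Long noncoding RNAs are transcribed by RNA polymerase II, and many are spliced and polyadenylated, yet they are not translated into known proteins. Some act as RNA at their own locus or elsewhere. Others carry small RNAs in their introns, such as the small nucleolar RNAs (snoRNAs) that guide modification of ribosomal RNA, or the hairpins from which microRNAs are cut. Many start close to, and point away from, the promoter of a protein-coding gene, and in embryonic stem cells several arise at enhancers bound by pluripotency factors.

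The libraries held 24764879 (siCtrl 1), 68002338 (siCtrl 2), 22363943 (siEsrrb 1) and 61857158 reads (siEsrrb 2), recovered from the RPKM. Esrrb itself had 3.39 and 3.10 scaled RPKM in the siCtrl libraries and 1.50 and 2.08 in the siEsrrb libraries, which is 44.2% of control in replicate 1 and 67.0% in replicate 2. The log2 fold change was -0.72 ± 0.15 (SE), with an adjusted p of 0.281 (limma, Benjamini-Hochberg over all genes tested). The embryonic stem cell markers were all transcribed (7 of 7 at the minimum, summed level 82.2 to 86.5 scaled RPKM in siCtrl and 71.6 to 79.1 in siEsrrb). Of the fibroblast, primitive endoderm, trophectoderm and mesendoderm markers, none reached the minimum. Of 4 neuroectoderm markers 3 did, with a summed level of 3.06 to 3.07 scaled RPKM in siCtrl and 2.63 to 3.43 in siEsrrb; their part in any result below was not tested.

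The members with the largest differences included Kis2, a host of microRNAs, and the mature sequences show how its cluster is related to that of Mir17hg. Kis2 (NR_003188) lies at the X-linked miR-106a to miR-363 cluster, and Mir17hg (NR_029382) carries the miR-17 to miR-92a cluster on chromosome 14. In the annotation the span of Kis2 holds Mir106a alone of its cluster, and that of Mir17hg holds Mir19b-1 and Mir92-1. The clusters are paralogs, and their products share seeds, the bases 2 to 8 that pair with target messages. In the sequences below, from the RefSeq annotation GRCm38.p6 and written 5′ to 3′, the seed is in capitals. The first 4 share the seed AAAGUGC, the next 2 AAGGUGC, the next 2 GUGCAAA and the last 2 AUUGCAC. Those of the chromosome 14 cluster are miR-17, miR-20a, miR-18a and miR-19a, those of the X-linked cluster are miR-106a, miR-20b, miR-18b and miR-363, and miR-19b and miR-92a are made from both.
miR-17-5p: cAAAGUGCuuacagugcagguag
miR-20a-5p: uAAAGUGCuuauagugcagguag
miR-106a-5p: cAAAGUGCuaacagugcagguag
miR-20b-5p: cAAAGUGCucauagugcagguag
miR-18a-5p: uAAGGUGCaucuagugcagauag
miR-18b-5p: uAAGGUGCaucuagugcuguuag
miR-19a-3p: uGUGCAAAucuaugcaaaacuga
miR-19b-3p: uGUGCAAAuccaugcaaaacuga
miR-92a-3p: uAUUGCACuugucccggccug
miR-363-3p: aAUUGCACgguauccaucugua

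Kis2 was higher after knockdown and was the 1 member whose lowest siEsrrb library lay at least 1.5-fold above the highest siCtrl library after 0.5 RPKM was added to every value, a step that damps the differences of low genes. Its level was 5.84 and 5.41 scaled RPKM in siCtrl 1 and 2 and 12.3 and 9.57 in siEsrrb 1 and 2. The groups did not overlap, and the siEsrrb libraries stood at 211% and 177% of the control of the same number. On the log2(RPKM + 0.5) scale the difference was 0.89 ± 0.16 (SE), with an unadjusted limma p of 0.00415 and an adjusted p of 0.253, so it did not pass the adjusted test. Kis2 rested on 280, 808, 514 and 1268 reads in that order of libraries.

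Mir17hg was also higher in both siEsrrb libraries, at 18.9 and 17.2 scaled RPKM against 15.1 and 13.2. The log2 difference was 0.34 ± 0.14 (SE), with an unadjusted limma p of 0.0625 and an adjusted p of 0.464, so this host did not pass either threshold. The 6 hairpin genes of each cluster have rows of their own. Summed over the hairpins of the chromosome 14 cluster there were 121 and 265 reads in siCtrl 1 and 2 and 139 and 329 in siEsrrb 1 and 2, which is 5.13 and 3.60 scaled RPM (reads corrected for depth only) against 6.76 and 5.04. The groups overlapped in that sum. Over the hairpins of the X-linked cluster the sums were 5, 38, 15 and 57 reads in the same order, or 0.212, 0.517, 0.729 and 0.873 scaled RPM. Both siEsrrb libraries were above both siCtrl libraries, on few reads. Hairpin rows count reads on precursors, and mature microRNAs were not measured.

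The promoter of Kis2 is shown for the same reason, as the start of the member with the largest upward log2 difference, although nothing in these libraries measures binding there. It lies at chrX:52744544-52744843 on the minus strand (GRCm38.p6, 250 bases before to 50 after the annotated start). CpG dinucleotides, of which there are 15, are in capitals.
Kis2: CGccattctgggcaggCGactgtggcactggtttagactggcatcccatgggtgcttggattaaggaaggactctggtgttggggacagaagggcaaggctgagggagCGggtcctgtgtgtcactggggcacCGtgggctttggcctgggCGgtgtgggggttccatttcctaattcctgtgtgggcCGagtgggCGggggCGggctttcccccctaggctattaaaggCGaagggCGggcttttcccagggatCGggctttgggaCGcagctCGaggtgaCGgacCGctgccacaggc

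Across all 183 members the levels spanned from 0.531 to 209.5 scaled RPKM with a median of 1.23, beside a median of 1.54 over 8722 protein-coding genes tested. There were 16 members at 10 RPKM or more and 74 under 1 RPKM. Just inside the minimum lay Gm16845 and 1700030C10Rik, with a mean of 0.531 and 0.535 RPKM, and just outside it D330041H03Rik and BC051226, with 0.496 and 0.492. The mean number of reads per library was at least 20.2 for every member, with a median of 515.8 and a maximum of 18018 at Pvt1. In single libraries 11 members fell under 20 reads, the lowest at 8.

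**Figure D1:**
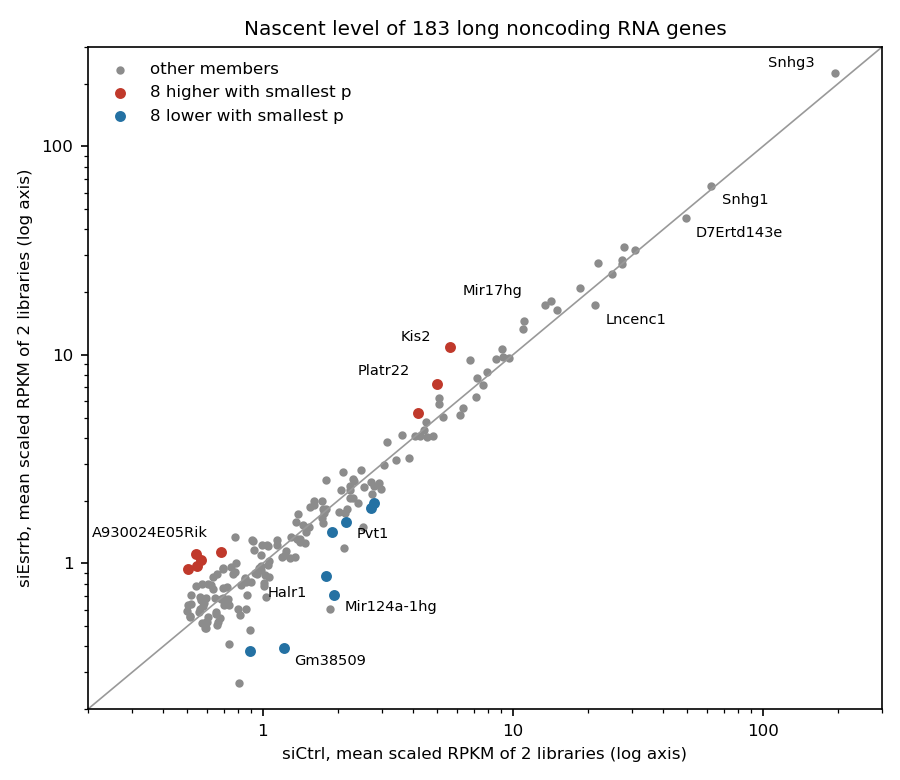
Mean scaled RPKM of each member in the 2 siCtrl libraries (horizontal) and in the 2 siEsrrb libraries (vertical), both on log axes, 1 point per gene; the line marks equal levels. Most points lie near the line from 0.531 to 209.5 RPKM, with Kis2 above it and Mir124a-1hg, Gm38509 and Halr1 below it.

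Most of the highest levels belonged to snoRNA hosts. Snhg3 (NR_003270), whose introns hold Snora73a and Snora73b, stood first with 208 and 181 scaled RPKM in siCtrl 1 and 2 and 249 and 200 in siEsrrb 1 and 2. The groups overlapped, with a log2 difference of 0.20 ± 0.19 (SE). Snhg1, host of Snord22 among others, had 63.5 and 61.0 in siCtrl and 64.9 and 64.8 in siEsrrb, higher in both siEsrrb libraries by a log2 difference of 0.06 ± 0.13 (SE). D7Ertd143e, which spans hairpins of the miR-290 to miR-295 stem cell cluster, had 47.3 and 50.9 against 42.2 and 48.6, and the groups overlapped. Snhg4 followed with 31.3 and 30.5 against 32.5 and 30.9. The next in level were 2410006H16Rik, Snhg10, Snhg5 and Snhg9, at 30.3, 28.0, 27.4 and 24.7 scaled RPKM over all libraries. 2410006H16Rik, which spans Snord49a, Snord49b and Snord65, was higher in both siEsrrb libraries, at 35.2 and 30.6 against 29.0 and 26.6, with a log2 difference of 0.24 ± 0.15 (SE) and an unadjusted limma p of 0.177. Neighbours in this order from Snhg4 to Snhg9 overlapped in their library values. Small RNAs inside these hosts have rows of their own in the annotation, and whether their reads were also counted for the host is not given in the sources used here.

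No member passed the adjusted limma test (0 of 183), and none of the 9758 genes tested did (0%). At an unadjusted p under 0.05 there were 18 members higher (9.84%) and 15 lower (8.20%), beside 5.92% and 5.33% of all genes tested. The shares of the members stood somewhat above this background, and the difference of these shares was not tested. The 15 lower members include Gm38509, Gm53, Platr7, Platr26 and, singled out after its values were seen, 1810013A23Rik. Each of these had a siEsrrb mean under 0.5 scaled RPKM and was a member only through siCtrl. The lower share is therefore not independent of the choice of members. The same test on recovered reads (limma voom) gave 0 members past the adjusted test and 13 higher (background 5.83%) and 14 lower (background 6.43%) at an unadjusted p under 0.05. Both siEsrrb libraries lay above both siCtrl libraries in 51 members (background 21.8%) and below them in 43 (background 22%), which is 27.9% and 23.5% of the members. On the RPKM + 0.5 scale, groups apart by at least 1.5-fold were found in 1 member upward (background 0.666%) and 2 downward (background 0.615%). On scaled RPKM without that addition, a count added after the data were seen, there were 6 upward (3.28%, background 1.28%) and 7 downward (3.83%, background 1.2%). The 6 were Kis2, A930024E05Rik, Gm15706, Lncpint, 1700097N02Rik and 2610037D02Rik, and the 7 were Mir124a-1hg, Gm38509, Halr1, Nphs1os, Gm53, Platr7 and Platr26. Of the latter, Gm38509, Gm53, Platr7 and Platr26 had a siEsrrb mean under 0.5 scaled RPKM. They reached the minimum only through siCtrl, so their choice was not independent of the direction. The differences of these shares from the background were not tested.

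The median log2 difference over the members was -0.0006, beside -0.001 over all genes tested. By replicate number it was -0.03 in replicate 1 and 0.02 in replicate 2. The sign was the same in both replicates in 147 members (80.3%), beside 77.4% of all genes tested. Across members the 2 log2 differences correlated with r = 0.84, beside 0.53 across all genes tested, some of which rest on a single read per library. These are correlations across genes, which are not independent replicates, and the 2 replicates share no library.

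**Figure D2:**
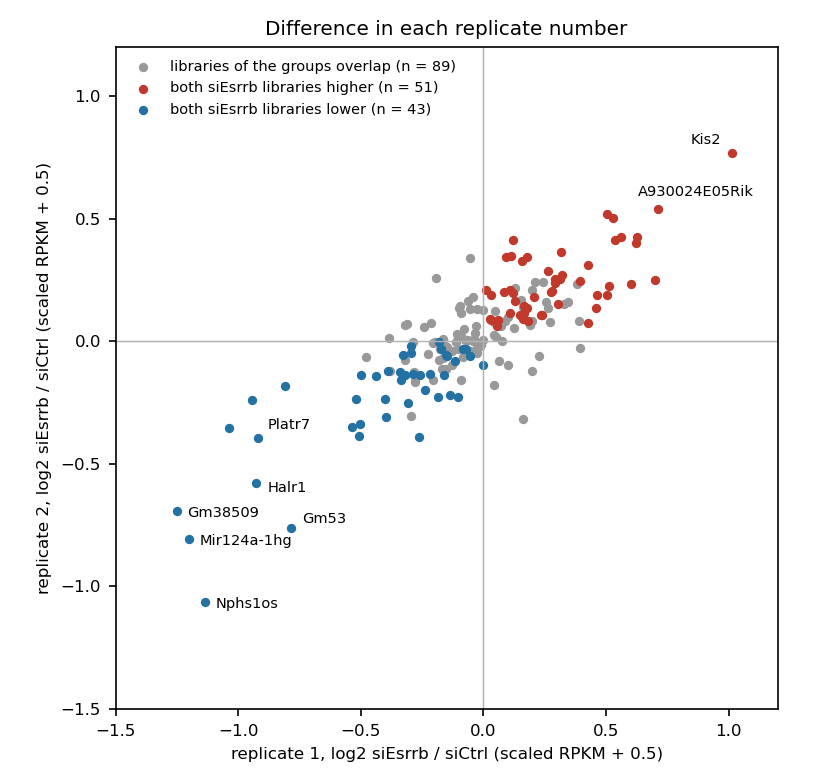
Log2 difference siEsrrb against siCtrl of each member (scaled RPKM + 0.5) in replicate 1 (horizontal) and replicate 2 (vertical), coloured by whether the libraries of the groups overlap. The 51 members higher in both siEsrrb libraries and the 43 lower lie on either side of 0 along one diagonal cloud. Some of them are close to 0 in both replicates, such as Snhg1 (0.03 and 0.09) and Gm20605 (-0.05 and -0.06). The lower end reaches further in replicate 1.

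Among members lower after knockdown, Mir124a-1hg (NR_040709) had the smallest p. It is the host of Mir124a-1 and Mir3078, and miR-124 is best known as a microRNA of neurons. Its level was 2.22 and 1.66 scaled RPKM in siCtrl and 0.682 and 0.734 in siEsrrb, on 306, 712, 82 and 280 reads. Both siEsrrb libraries were well below both siCtrl libraries, at 30.8% and 44.3% of control. The log2 difference was -1.003 ± 0.131 (SE), with an unadjusted limma p of 0.00134 and an adjusted p of 0.247, the lowest adjusted value of any member and shared with others. The nearest tested protein-coding gene, Kif13b, which encodes a kinesin motor, had a log2 difference of 0.05 ± 0.12 (SE) with overlapping groups.

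Gm38509 (NR_110488) and Mir124a-1hg were the 2 members lower by at least 1.5-fold on the RPKM + 0.5 scale. The level of Gm38509 was 1.23 and 1.21 scaled RPKM in siCtrl and 0.227 and 0.556 in siEsrrb, on 298, 911, 48 and 373 reads. With a siEsrrb mean of 0.392 it was a member only through siCtrl. The siCtrl libraries were close together, while siEsrrb 1 lay further below them (18.5% of control) than siEsrrb 2 (46.1%). The log2 difference was -0.97 ± 0.20 (SE), with an unadjusted limma p of 0.00730 and an adjusted p of 0.281. The nearest tested protein-coding gene is Sox2, which encodes a core pluripotency factor. Sox2 had 24.4 and 21.1 scaled RPKM in siCtrl and 22.6 and 20.4 in siEsrrb, with overlapping groups and a log2 difference of -0.08 ± 0.15 (SE). Sox2ot, a long transcript that overlaps Sox2, had 0.762 and 0.639 in siCtrl and 0.654 and 0.607 in siEsrrb, also overlapping.

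The start of Gm38509 is shown beside that of Kis2 because they differ in base composition. It lies at chr3:34771825-34772124 on the plus strand (GRCm38.p6) and holds 4 CpG dinucleotides, in capitals, where the Kis2 start holds 15. The median was 17.5 over the 150 members with a promoter entry and 22 over 7257 tested genes with one.
Gm38509: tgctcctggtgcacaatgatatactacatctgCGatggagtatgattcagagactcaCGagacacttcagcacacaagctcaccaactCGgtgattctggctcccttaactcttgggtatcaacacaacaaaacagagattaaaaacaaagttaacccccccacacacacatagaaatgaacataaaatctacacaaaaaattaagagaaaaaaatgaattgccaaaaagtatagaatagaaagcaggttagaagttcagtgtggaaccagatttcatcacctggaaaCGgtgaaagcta

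Halr1 (NR_110440), the HoxA adjacent long noncoding RNA, had 1.82 and 1.76 scaled RPKM in siCtrl and 0.720 and 1.01 in siEsrrb, or 39.5% and 57.5% of control. Its groups were apart and its log2 difference was -0.75 ± 0.12 (SE), with an adjusted limma p of 0.247. Skap2, the nearest tested protein-coding gene, which encodes an adaptor of Src kinase signalling, was lower in both siEsrrb libraries too, at 0.487 and 0.713 against 0.853 and 0.889 scaled RPKM. Its log2 difference was -0.33 ± 0.12 (SE), with an adjusted limma p of 0.454.

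Platr7, one of the pluripotency-associated transcripts (Platr genes), had 1.04 and 0.744 scaled RPKM in siCtrl and 0.312 and 0.448 in siEsrrb, a log2 difference of -0.66 ± 0.15 (SE). Its nearest tested protein-coding gene Ckap4 had 0.09 ± 0.19 (SE). Pvt1, a long locus next to the proto-oncogene Myc, had 2.28 and 2.04 scaled RPKM in siCtrl and 1.61 and 1.55 in siEsrrb, on 11468, 31982, 7074 and 21548 reads. It was thus the best covered of the members and stood at 70.8% and 75.9% of control, with a log2 difference of -0.35 ± 0.08 (SE) and an adjusted limma p of 0.296. Myc had 1.13 and 0.696 scaled RPKM in siCtrl and 1.39 and 0.873 in siEsrrb, so that the groups overlapped.

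The remaining members in the lower set of smallest p were 1700108F19Rik, Gm20199 and AI450353. 1700108F19Rik had 2.86 and 2.54 scaled RPKM in siCtrl and 1.86 and 1.83 in siEsrrb; Tsc22d1 nearby was lower in both siEsrrb libraries with a log2 difference of -0.14 ± 0.10 (SE). Gm20199 had 2.95 and 2.61 against 1.93 and 1.96, inside the span and on the strand of Arih1, a ubiquitin ligase gene that had 2.66 and 2.49 against 2.13 and 2.16. Reads of these overlapping genes cannot be told apart. AI450353, which spans Snord7, had 1.81 and 1.98 against 1.43 and 1.39, on 64, 218, 44 and 136 reads. It overlaps AA465934, a member that also spans Snord7 and was lower in both siEsrrb libraries, with a log2 difference of -0.20. Reads of AI450353 and AA465934 cannot be told apart where their spans overlap.

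A pair of lower members was singled out after their values were seen, for differences of similar size with wider spread. Nphs1os, antisense to the nephrin gene Nphs1, had 1.41 and 2.29 scaled RPKM in siCtrl and 0.369 and 0.836 in siEsrrb, a log2 difference of -1.10 ± 0.29 (SE). Nphs1 had 3.91 and 3.95 against 0.868 and 1.51, a log2 difference of -1.42 ± 0.20 (SE) with an adjusted limma p of 0.247. Since use of strand is not given in the sources used here, reads of Nphs1os and Nphs1 cannot be told apart. Gm53, which overlaps no other long gene in the annotation, had 0.628 and 0.984 against 0.155 and 0.376, or 24.8% and 38.3% of control.

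**Figure D3:**
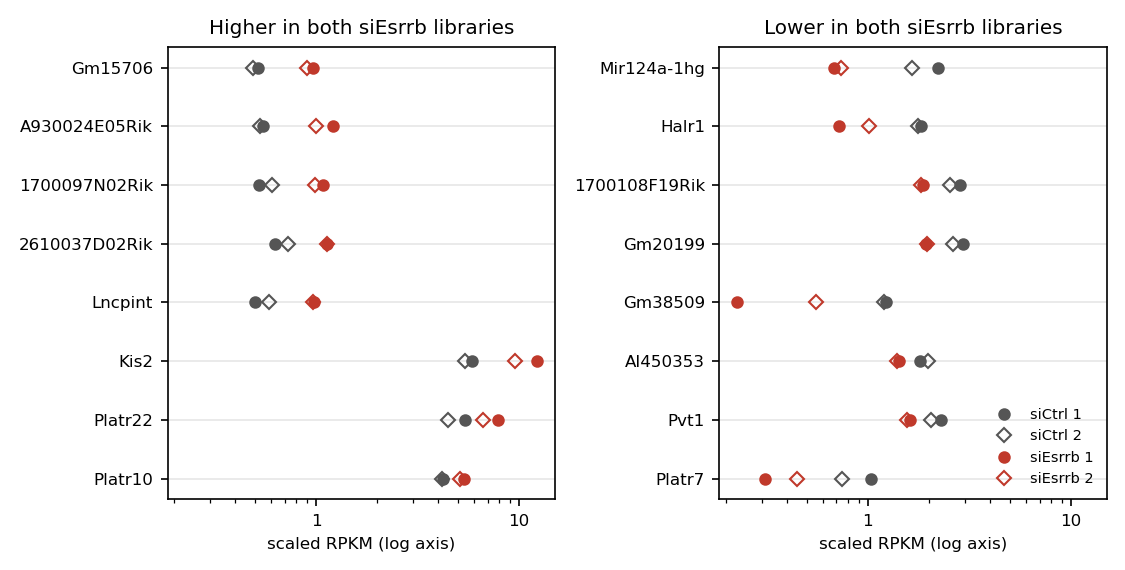
Scaled RPKM on a log axis in each library for the 8 members per direction with the smallest p among those whose groups do not overlap; grey marks siCtrl, red siEsrrb, filled circles replicate 1 and open diamonds replicate 2. In the left panel all red marks lie to the right of the grey ones and in the right panel to the left, with the widest gaps at A930024E05Rik in the left panel and at Mir124a-1hg and Gm38509 in the right.

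Among members higher after knockdown, 5 low-level genes had the smallest p. Gm15706 (NR_045598) had 0.519 and 0.490 scaled RPKM in siCtrl and 0.969 and 0.904 in siEsrrb, on 16, 47, 26 and 77 reads. The log2 difference was 0.52 ± 0.07 (SE) with an adjusted limma p of 0.247.

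A930024E05Rik (NR_045820) starts divergently from Kdm2b, which encodes a histone demethylase that brings a Polycomb complex to CpG islands. It had 0.547 and 0.532 scaled RPKM in siCtrl and 1.22 and 1.00 in siEsrrb, or 223% and 188% of control, a log2 difference of 0.63 ± 0.09 (SE) with an adjusted limma p of 0.247. Kdm2b had 1.99 and 1.71 against 2.33 and 1.95, so that its groups overlapped, with a log2 difference of 0.16 ± 0.11 (SE). The start of A930024E05Rik, shown as an example of a divergent promoter, lies at chr5:122989104-122989403 on the plus strand (GRCm38.p6) and holds 31 CpG dinucleotides, in capitals.
A930024E05Rik: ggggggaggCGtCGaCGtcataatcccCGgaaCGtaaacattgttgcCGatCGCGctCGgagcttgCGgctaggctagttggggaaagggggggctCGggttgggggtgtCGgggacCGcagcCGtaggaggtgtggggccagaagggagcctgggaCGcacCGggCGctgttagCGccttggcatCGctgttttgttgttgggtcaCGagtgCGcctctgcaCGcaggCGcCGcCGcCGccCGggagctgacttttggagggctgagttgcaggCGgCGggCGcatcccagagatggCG

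1700097N02Rik, divergent from the axonemal dynein gene Dnah8, had 0.522 and 0.609 scaled RPKM in siCtrl and 1.08 and 0.988 in siEsrrb. Dnah8 was higher in both siEsrrb libraries as well, at 1.02 and 1.45 against 0.659 and 0.970, with a log2 difference of 0.40 ± 0.18 (SE). 2610037D02Rik had 0.627 and 0.730 against 1.13 and 1.14, and Arid2, a chromatin remodeller gene nearby, was higher in both siEsrrb libraries with a log2 difference of 0.16 ± 0.09 (SE). Lncpint, known as a transcript induced by p53, had 0.500 and 0.590 in siCtrl and 0.974 and 0.964 in siEsrrb, on 625, 2298, 1061 and 3331 reads. Its log2 difference was 0.49 ± 0.08 (SE) with an adjusted limma p of 0.247, while that of its neighbour Mkln1 was -0.06 ± 0.10 (SE) with overlapping groups.

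Platr22 and Platr10 completed the higher set. Platr22 had 5.43 and 4.49 scaled RPKM in siCtrl and 7.91 and 6.65 in siEsrrb, on 3781 to 12808 reads per library, a log2 difference of 0.51 ± 0.15 (SE). Its neighbour Zfp281, which encodes a zinc finger factor of pluripotent cells, was higher in both siEsrrb libraries with 0.32 ± 0.17 (SE). Platr10 had 4.21 and 4.15 against 5.38 and 5.11, and its neighbour Pdcd10 was lower in both siEsrrb libraries, at -0.17 ± 0.07 (SE) with groups apart. Kis2 belongs to this set as well, and its nearest tested protein-coding gene, the glypican gene Gpc3, had 0.04 ± 0.07 (SE) with overlapping groups.

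Long noncoding RNAs listed for a link to stem cells did not share a direction. Of 14 members of this list, 5 were higher in both siEsrrb libraries (background 21.8%), 4 lower (background 22%), and 5 had overlapping groups. The median log2 difference was -0.08, beside -0.001 over all genes tested. At an unadjusted limma p under 0.05 were 3 higher (Platr22, Platr10 and Platr21) and 3 lower (Halr1, Platr7 and Platr26), and none passed the adjusted test. Over all genes tested the shares at this threshold were 5.92% higher and 5.33% lower. Platr7 and Platr26 were members only through their siCtrl level. Platr26 had 0.726 and 0.739 scaled RPKM in siCtrl and 0.345 and 0.472 in siEsrrb, a log2 difference of -0.44 ± 0.10 (SE). Its neighbour Itga6, an integrin gene, was lower as well, at 1.96 and 1.98 against 2.78 and 2.67.

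Lncenc1, the most transcribed of that list and known from naive stem cells, had 23.1 and 19.5 scaled RPKM in siCtrl and 16.9 and 17.7 in siEsrrb. Both siEsrrb libraries were lower, with a log2 difference of -0.29 ± 0.14 (SE) and an unadjusted limma p of 0.107. Platr21 had 1.48 and 1.28 against 1.70 and 1.74 and overlaps Trap1a on the other strand. Oip5os1, also called Cyrano, had 3.48 and 3.70 against 4.18 and 4.03, a log2 difference of 0.17 ± 0.08 (SE), and Platr20 had 0.06 ± 0.06 (SE). The groups overlapped for Platr14, Platr4, Eprn, Panct2 and Sox2ot, whose log2 differences ran from -0.25 at Platr4 to 0.14 at Eprn. The list also holds 8 genes with a row below the minimum, the highest of them Trp53cor1 at a mean of 0.468 RPKM.

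**Figure D4:**
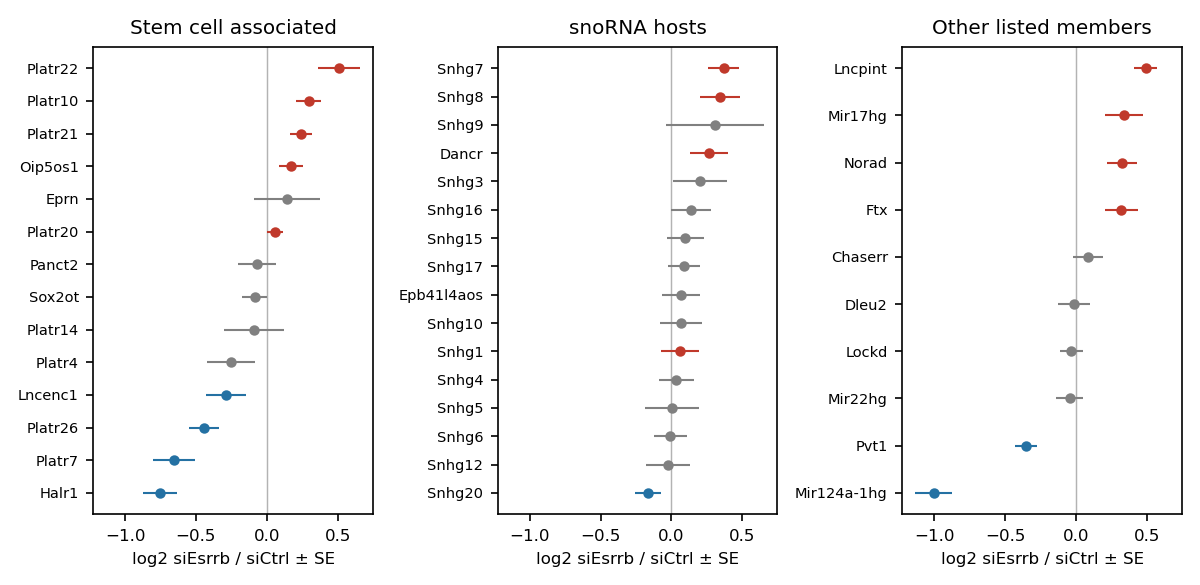
Log2 difference siEsrrb against siCtrl with its standard error from limma for members of the gene lists; red marks members whose siEsrrb libraries are both higher, blue both lower, grey overlapping groups. The stem cell associated genes spread from -0.75 (Halr1) to 0.51 (Platr22), whereas the snoRNA hosts lie between -0.17 (Snhg20) and 0.37 (Snhg7).

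The listed snoRNA hosts had small differences between the groups. Of 16 members on that list 4 were higher in both siEsrrb libraries (background 21.8%), 1 lower (background 22%) and 11 overlapping. The median log2 difference was 0.08. Snhg7 had 10.8 and 11.4 scaled RPKM in siCtrl and 14.7 and 14.2 in siEsrrb, and its log2 difference of 0.37 ± 0.11 (SE) was the one at an unadjusted limma p under 0.05 (0.0259, adjusted 0.393). Snhg8 had 13.2 and 13.8 against 18.9 and 15.8, and Dancr, which spans Snora26, had 11.6 and 10.4 against 14.3 and 12.3. Snhg20 was lower, at 5.75 and 5.41 against 6.22 and 6.43. Snhg5, Snhg6, Snhg12, Snhg4, Snhg10, Epb41l4aos, Snhg17, Snhg15, Snhg16, Snhg3 and Snhg9 had overlapping groups, with log2 differences from -0.03 (Snhg12) to 0.31 (Snhg9). The direction for Snhg4 and Snhg5 turned when the libraries were not scaled, to -0.0068 and -0.04. Over all 25 members with an annotated snoRNA gene inside, listed or not, 9 were higher (background 21.8%) and 3 lower (background 22%) in both siEsrrb libraries. Snhg20 has none inside and is not among them. Their log2 differences ran from -0.33 to 0.37 with a median of 0.125. At an unadjusted limma p under 0.05 were 2 higher (background 5.92%) and 1 lower (background 5.33%).

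Of 5 microRNA hosts on the list, Mir17hg was higher in both siEsrrb libraries and Mir124a-1hg and Pvt1 were lower. Pvt1 is on the list, but the annotation used here places no microRNA gene inside it, so it is not among the 16 members below. Mir22hg and Dleu2, host of miR-15a and miR-16-1, had overlapping groups, with log2 differences of -0.04 ± 0.10 and -0.01 ± 0.11 (SE). Over all 16 members with an annotated microRNA gene inside, listed or not, 4 were higher (background 21.8%) and 3 lower (background 22%) in both siEsrrb libraries. In each direction 1 reached an unadjusted limma p under 0.05, Kis2 (background 5.92%) and Mir124a-1hg (background 5.33%).

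Among widely expressed regulatory transcripts, 4 of 9 were higher in both siEsrrb libraries (background 21.8%) and 1, Pvt1, lower (background 22%). Norad, which binds Pumilio proteins in the cytoplasm, had 2.06 and 2.11 scaled RPKM in siCtrl and 3.03 and 2.48 in siEsrrb, a log2 difference of 0.33 ± 0.11 (SE) and an unadjusted limma p of 0.0372. Ftx, a gene of the X inactivation centre, had 0.978 and 0.857 against 1.44 and 1.11, a log2 difference of 0.32 ± 0.12 (SE) and an unadjusted limma p of 0.0519. Chaserr, whose span overlaps that of Chd2 in the annotation, and Lockd, next to Cdkn1b, had overlapping groups, at 0.09 ± 0.10 and -0.03 ± 0.08 (SE). Reads of Chaserr and Chd2 cannot be told apart where their spans overlap. Of the other X inactivation genes with a row, Xist and Jpx were under the minimum, with means of 0.109 and 0.158 RPKM.

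The members were also grouped by their position along the chromosome. In the annotation 83 overlapped no other long gene, and of these 29 were higher and 11 lower in both siEsrrb libraries, with a median log2 difference of 0.04. The other 100 overlapped at least 1 long gene, and 22 were higher and 32 lower, with a median of -0.02. Strand was known for 150 members, of which 42 started divergently from a protein-coding gene (a start on the other strand from 2000 bases upstream to 500 downstream). Among these 17 were higher and 5 lower, with a median of 0.06, and their promoters held a median of 28 CpG dinucleotides. Among the 108 without a divergent start 27 were higher and 24 lower, with a median of -0.01 and a median of 13.5 CpG dinucleotides. Background shares over all genes tested are 21.8% higher and 22% lower, and these differences between classes were not tested.

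Log2 differences of members and of their nearest tested protein-coding genes were set side by side, since the series asks how enhancers and genes communicate within one chromatin domain. In 64 pairs with overlapping spans r was 0.43, and in 119 pairs without overlap it was 0.17. Without the pair Nphs1os and Nphs1 the value for overlapping pairs was 0.14. Gm4532, singled out after its values were seen, had a log2 difference of 0.11 while that of the overlapping Septin1 was -1.82, and without both of these pairs r was 0.46. In 39 divergent pairs with a tested partner r was 0.25, and 20 of them had the same sign. Among pairs without overlap, groups were apart in the same direction in 17 and in opposite directions in 11. Among overlapping pairs, whose reads cannot be told apart, these counts were 15 and 4. Singly, 21.8% of all genes tested were higher and 22% lower in both siEsrrb libraries. Shares for pairs over all genes are not reported here, so the counts of pairs are not read as agreement between neighbours. These are descriptions across genes, which share the 4 libraries.

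**Figure D5:**
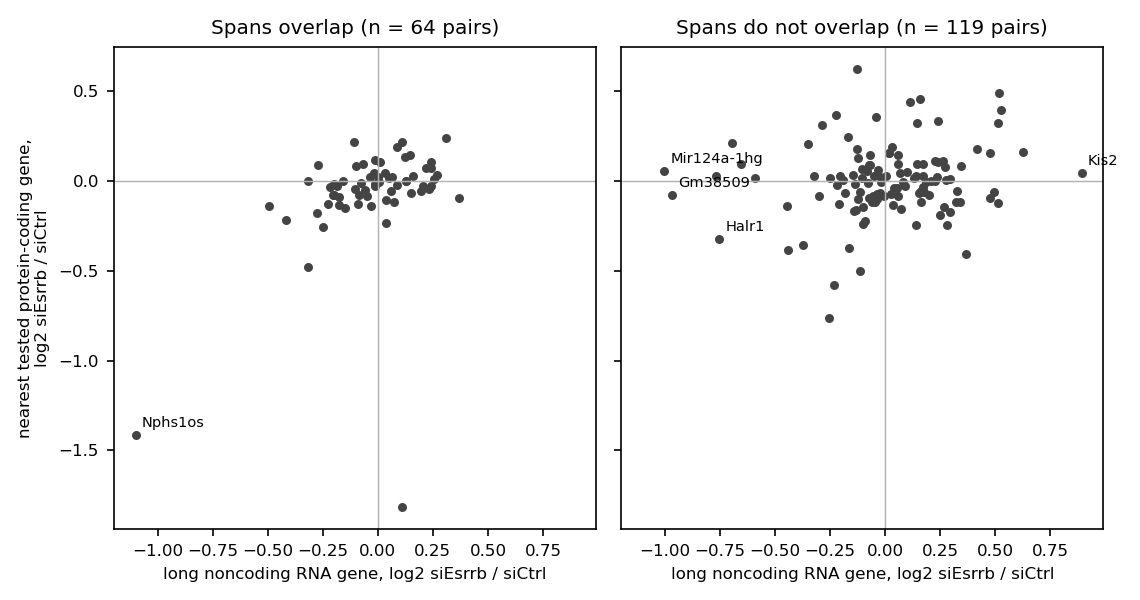
Log2 difference siEsrrb against siCtrl of each member (horizontal) and of its nearest tested protein-coding gene (vertical), for 64 pairs whose spans overlap (left) and 119 whose spans do not (right). Nphs1os and Nphs1 are the pair far to the lower left, and Mir124a-1hg, Gm38509 and Kis2 lie near 0 on the vertical axis.

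The estrogen-related receptor response element, the motif that Esrrb is known to bind, was searched in the promoters as TNAAGGTCA on either strand and in its stricter form TCAAGGTCA, which the first contains. TNAAGGTCA was in 1 of 150 member promoters (0.667%), beside 0.841% of 7257 tested genes and 1.43% of 27025 genes with an entry. TCAAGGTCA was in 0 of 150, beside 0.317% and 0.466%. The share among members was near the background. The one match was in 9430037G07Rik, at chr9:88599194-88599493 on the minus strand (GRCm38.p6), in capitals below and 12 bases before the annotated start.
9430037G07Rik: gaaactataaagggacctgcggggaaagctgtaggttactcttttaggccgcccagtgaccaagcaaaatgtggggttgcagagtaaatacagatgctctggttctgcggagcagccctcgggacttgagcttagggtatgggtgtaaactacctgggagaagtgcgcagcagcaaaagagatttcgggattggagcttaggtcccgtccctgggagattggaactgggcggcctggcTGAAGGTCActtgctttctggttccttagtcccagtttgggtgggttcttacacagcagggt
This gene had 0.973 and 1.13 scaled RPKM in siCtrl and 1.15 and 1.27 in siEsrrb, a log2 difference of 0.14 ± 0.08 (SE) with an unadjusted limma p of 0.168. Of the 16 members in the higher and lower sets of smallest p, 12 had a sequence in this search. Mir124a-1hg and Pvt1 were among the members described above without one. A match or its lack in these windows says nothing of binding.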

How the data were processed

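Nascent RNA-seq of 4 libraries was used (2 siCtrl, 2 siEsrrb); the other 56 samples of the series were not analysed here. The authors deposited 1 RPKM value per RefSeq transcript and library (34929 transcripts). The submitters' processing notes name CASAVA 1.4, TopHat2, Bowtie 1.1.1 and Bowtie2 and the build mm9; for counting, strand and multiple alignments the method is not given in the sources used here. A deposited RPKM table of the whole series equals replicate 1 at all 34929 transcripts and added no data. Symbols, biotypes and gene order came from RefSeq GRCm38.p6, as did the promoter and microRNA sequences, and no mm9 coordinates are given.

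Per symbol, the transcript with the highest summed RPKM stood for the gene. RPKM were multiplied by median-of-ratios factors (0.925 to 1.09), log2(RPKM + 0.5) was fitted with limma 3.58.1 in R 4.3.3 (trend, 2 groups, no replicate block) over all 9758 genes at a mean of 0.5 RPKM or more, and p-values were two-sided and adjusted by Benjamini-Hochberg (threshold 0.05). The unit was RPKM rather than counts, so no count model was the main test. Fold changes on this scale understate those of low genes. With 2 libraries per group the smallest exact permutation p is 0.333, so none was run. Whole reads were recovered from the RPKM for all 9758 genes (tolerance 0.002 of a read) and gave depths and the voom alternative. Promoter entries matched 150 members. The fit was tested on simulated data. Counts of reads speak to counting error only and not to the spread between libraries.

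The members and lists were chosen with earlier results of these data known. Members named are the 8 highest, the 8 per direction with the smallest p among those with groups apart and a mean of at least 20 reads over the libraries, all listed genes, those at the edge of the minimum, and the nearest tested protein-coding gene of the second set (for 2 of these it is not reported here); others are said to be singled out. Alternatives were other pseudocounts, filters, scaling, voom, the replicate block, each library left out, members without overlap and, added after the data were seen, the 1.5-fold count without a pseudocount.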

Additional observations from a re-analysis of the deposited data

How the results depend on the processing

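No member passed the adjusted limma test under 12 of the 13 alternatives run; limma voom on recovered reads with a replicate block gave 63 members (34.4%, beside 28.2% of all genes tested), and Esrrb then had a log2 fold change of -0.89 and passed as well. The replicate block alone gave 0 past the adjusted test and 41 higher and 27 lower members at an unadjusted p under 0.05 (over all genes 13.9% and 12.3%), and with voom 40 and 43 (over all genes 17.5% and 19.9%), beside 18 and 15 without the block. Deviations of libraries with the same number from their group means correlated at 0.39 over 9758 genes, but only the later pair carries a number and no label states a pairing, so the block is no stronger evidence. At an unadjusted p under 0.05 there were 9 higher and 8 lower members at a mean of at least 1 RPKM (which leaves 110 members), and 10 higher without scaling. Shares over all genes under these settings are not reported here, so these counts are not read as particular to the members. Leaving out 1 library gave 10 to 13 higher and 10 to 24 lower members, with 10 higher without siCtrl replicate 1 or siEsrrb replicate 1 and 24 lower without siEsrrb replicate 2. The median log2 fold change ran from -0.031 to 0.051 when 1 library was left out, the latter without siEsrrb replicate 1. Among the 58 members that overlap no annotated gene of any kind, 19 were higher and 9 lower in both siEsrrb libraries (over all genes 21.8% and 22%). By at least 1.5-fold on the RPKM + 0.5 scale, 0 were higher and 1 lower (over all genes 0.666% and 0.615%). Without a pseudocount, an alternative chosen after seeing the data, 6 members were higher and 7 lower by at least 1.5-fold, and 3 and 5 of the 58 (over all genes 1.28% and 1.2%).

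Of 677 values of the 53 named members under the alternatives, 654 kept their direction, including all values of the 16 with the smallest p. These 16 were chosen with groups apart, so leaving out 1 library or changing the pseudocount could not turn their direction. Among the 53 named members, the direction of 14 turned with 1 library left out. The log2 fold change of 1700030C10Rik then ran from -0.352 to 0.074, of Mir22hg from -0.145 to 0.056, of Snhg10 from -0.025 to 0.159, of Snhg12 from -0.130 to 0.078 and of Snhg6 from -0.093 to 0.078 (opposite without siCtrl replicate 1, and for the Snhg genes also without siEsrrb replicate 2). It ran from -0.136 to 0.107 for Dleu2, from -0.068 to 0.207 for Epb41l4aos, from -0.162 to 0.446 for Eprn, from -0.0016 to 0.127 for Gm16845, from -0.345 to 0.163 for Platr14 and from -0.151 to 0.155 for Snhg5 (opposite without siCtrl replicate 2, and for Dleu2, Platr14 and Snhg5 also without siEsrrb replicate 1). It ran from -0.099 to 0.035 for Lockd, from -0.240 to 0.101 for Panct2 and from -0.057 to 0.674 for Snhg9 (opposite without siEsrrb replicate 1). It also turned without scaling for Snhg4 (-0.0068) and Snhg5 (-0.040), and with voom for Snhg5 (-0.00073). The causes were not tested. Depth limits the members with few reads, such as Gm15706, whose libraries hold 16 to 77 reads.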
